A study of Mus musculus with 48 samples.

Results

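Livers of ATF7+/- offspring whose sires had eaten a low protein diet (paternal low-protein diet, pLPD) were compared with livers of ATF7+/- offspring whose sires had eaten a control diet (pCD). The samples were chosen by their titles alone, without use of any measured value, and number 16 of the 48 arrays of the series, 8 for each paternal diet. The sires (F0 males) ate their diet from 3 to 12 weeks of age, and the median liver lobe of their F1 offspring was taken at 3 weeks of age. All 16 mice carried the ATF7+/- genotype, so the sire's diet was the labelled difference between them; the labels give the offspring as male or female without saying which, and do not say how the Atf7 allele was made. The design text calls the 8 arrays of a group biologically independent, but nothing states how many sires or litters they came from. In the main fits, p-values of level differences therefore measure the spread between arrays, pooled over all 6 groups of the series. The other arrays came from wild-type and ATF7+/+ offspring, again 8 per diet, and the labels do not say how these genotypes differ in origin.

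ATF7 belongs to the ATF2 family of transcription factors, which bind cAMP response elements and act in stress responses. It is phosphorylated by stress-activated kinases and is known to hold target genes silent through histone H3 lysine 9 methylation. The series asks whether a father's diet shows in the liver of his offspring and whether that depends on ATF7. A low protein diet of the sire is known for its effect on cholesterol synthesis in offspring liver, a pathway run by the SREBP2 transcription factor, which switches on the enzymes from the mevalonate steps to cholesterol when sterols are low.

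Expression is given as log2 values per gene, so a difference of 1 is a doubling, and all differences are pLPD minus pCD. Atf7 itself was read by 2 probe sets. The brighter one averaged 8.67 ± 0.15 in pLPD and 8.65 ± 0.15 in pCD livers, and the dimmer one 7.72 ± 0.37 in pLPD and 7.72 ± 0.26 in pCD livers (SD, n = 8 each). Both stood below their level in ATF7+/+ livers, by 0.37 (adjusted p = 0.00124) and by 0.94 (adjusted p = 3.05e-09, limma). Between the diets they differed by 0.02 (95% interval -0.15 to 0.18) and by 0.00 (-0.25 to 0.26).

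The arrays also fell into 2 sets that no label describes. Probe sets with no listed gene split all 48 into array set A and array set B, and replicates 1, 2 and 6 of both diets lay in set A and replicates 3, 4, 5, 7 and 8 of both diets in set B. The Y-linked level (mean of 3 genes) was 7.64 to 8.07 in 5 pLPD livers and 3.75 to 4.01 in 3, against 7.36 to 8.20 in 5 pCD livers and 3.74 to 4.07 in 3. The high values belonged to replicates 1 to 5 of both diets. Each diet thus held the same number of livers in each array set and in each class of Y-linked level. Hepatocyte markers marked the tissue as liver: 11 of 12 were measured, with a median level of 13.01, led by Alb at 13.52.

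No gene passed the test of the diet difference. Of 13542 genes tested with limma, 0 rose and 0 fell at a Benjamini-Hochberg adjusted p of 0.05 (percent called 0), and the smallest adjusted p was 1. At an unadjusted p of 0.05, 178 genes (1.31%) differed. Fitted on the ATF7+/- groups alone, 322 genes differed at that threshold, and with array set as a block 402 did. No gene passed the adjusted threshold in either of these fits. The groups failed to overlap in 1 gene (0.00738%), Wfdc13. Median levels over all genes were 7.33 in pLPD and 7.33 in pCD livers, and the levels of the genes correlated between the diets with r = 0.998, across genes that are not independent replicates.

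Intervals bounded the difference between the groups of arrays, gene by gene and without adjustment for the number of genes. They rest on the spread between arrays, so spread between sires or litters, whose number is not stated, may not be covered. The 95% interval of the diet difference lay within 1.5-fold up or down for 12996 genes (96%) and within 2-fold for 13467 genes (99.4%), and reached past 2-fold for 75. The median gene had an interval of ±0.20 around its difference, and 95% of genes had one of at most ±0.45. Among 1042 genes with a mean level of at least 10, 959 (92.0%) were bounded within 1.5-fold.

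The differences themselves were small. The median absolute difference was 0.05 and the 99th percentile 0.28 in ATF7+/- livers; in wild-type livers the same quantities were 0.09 and 0.79, and in ATF7+/+ livers 0.07 and 0.43. Mean differences beyond 2-fold were found for 5 genes in ATF7+/-, 70 in wild-type and 14 in ATF7+/+ livers. The plot of the diet difference against level shows the 16 genes whose means lay over 1.5-fold apart.

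**Figure D1:**
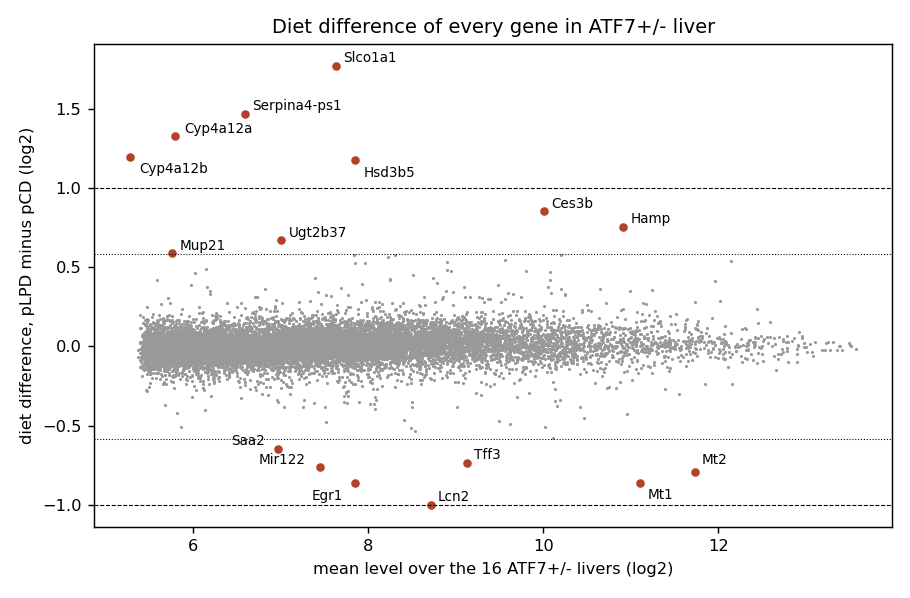
Diet difference (pLPD minus pCD, log2) of each of 13542 genes against its mean level (log2) over the 16 ATF7+/- livers. Dotted lines mark 1.5-fold and dashed lines 2-fold; the 16 red genes lie beyond 1.5-fold, and none of the genes passed the test.

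The gene with the smallest p was Mab21l4, which had 5.20, 5.34 and 5.46 (lowest, median, highest) in pLPD livers, against 5.43, 5.62 and 5.79 in pCD livers. These ranges overlapped only at their edges, and the difference was -0.28 (95% interval -0.43 to -0.13, unadjusted p = 0.000348). Wfdc13, which encodes a protein of the whey acidic protein family, had 5.60, 5.85 and 5.91 in pLPD and 5.95, 6.06 and 6.09 in pCD livers, with every pLPD value below every pCD value. It differed by -0.24 (-0.36 to -0.11, unadjusted p = 0.000373). Both genes lie close to the lower limit of 5.46 for genes tested. Prtn3, the neutrophil protease proteinase 3, was 5.36, 5.41 and 5.99 in pLPD and 5.54, 5.82 and 6.24 in pCD livers.

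Among the 12 genes with the smallest p, 9 had lower means in pLPD livers and 3 higher means. The higher ones were Riok2, a kinase of ribosome assembly, by 0.28, the acid-sensing channel gene Asic5 by 0.46, and Senp2, a SUMO protease, by 0.17. The lower ones also included Ckmt1, a mitochondrial creatine kinase, by -0.23. The non-coding gene 9330175E14Rik differed by -0.00 within array set A and -0.67 within set B. N4bp3, Tmco6 and Wdr25 differed by -0.27, -0.26 and -0.26.

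The 16 genes beyond 1.5-fold were picked after their values were seen, and 0 of them passed. Slco1a1, a hepatic organic anion uptake carrier that is higher in adult male mouse liver, had 5.67, 8.81 and 10.56 in pLPD livers, against 4.80, 6.47 and 9.12 in pCD livers. Its ranges overlapped widely, with pLPD replicates 1 and 2 highest of all at 10.56 and 9.90, and the difference was 1.77 (0.00 to 3.54, unadjusted p = 0.0497). Within array set A it was 3.70 and within set B 0.62. With the Y-linked level as a covariate it was 1.75. The diets held equal numbers of livers in each class of Y-linked level, so this covariate could hardly move the difference. Whether the difference was the same in both classes was not tested.

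Hsd3b5, a steroid-metabolising reductase of male mouse liver, was 6.15, 8.82 and 9.34 in pLPD and 5.02, 6.97 and 9.51 in pCD livers, a difference of 1.18 (-0.25 to 2.60). Here too the ranges overlapped, and the within-set differences were 2.50 in A and 0.38 in B. Cyp4a12a, the male-type fatty acid hydroxylase, and its near-identical neighbour Cyp4a12b differed by 1.33 and 1.20. Probe sets of such close copies may read each other's transcripts. In replicates 1 to 5, with a high Y-linked level, Cyp4a12a was 5.40 to 8.75 in pLPD and 4.23 to 6.24 in pCD livers. In replicates 6 to 8 it was 4.71 to 5.09 in pLPD and 4.33 to 5.47 in pCD livers. Cyp4a12b in replicates 6 to 8 was 4.40 to 4.52 in pLPD and 4.30 to 4.71 in pCD livers. This split was not tested. All pCD values of Cyp4a12b (4.30 to 5.32) lay below 5.46, the lower limit for the mean of genes tested. So did the pLPD values of both genes in replicates 6 to 8. The size of both differences is uncertain where values lie so low. Serpina4-ps1 differed by 1.47 (0.11 to 2.83), Ces3b, a carboxylesterase, by 0.85, Ugt2b37, a glucuronosyltransferase, by 0.67, and Mup21, a major urinary protein, by 0.59.

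Of the sex-biased liver genes listed, 10 of 15 were measured and all 10 had higher means in pLPD livers, with a median of 0.18, beside 0.00 over all genes. None passed. Their mean per liver, centred on all 16, was -0.02, 0.16 and 0.65 in pLPD and -0.74, -0.16 and 0.30 in pCD livers, so the groups overlapped. The list holds both male-biased and female-biased genes: Cyp3a44 and Cyp2b13, higher in females, differed by 0.17 and 0.18. Both diets had 5 livers with a high Y-linked level and 3 with a low one.

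Genes with lower means in pLPD livers included both metallothioneins, the metal-binding stress proteins. Mt1 was 9.75, 10.73 and 11.50 in pLPD and 11.16, 11.55 and 11.96 in pCD livers, where 2 pLPD livers overlapped the pCD range; its difference was -0.86 (-1.66 to -0.06, unadjusted p = 0.0359). Mt2 differed by -0.79 (-1.84 to 0.26). Lcn2, an iron-scavenging acute phase protein also stored in neutrophils, was 6.83, 8.52 and 9.27 in pLPD and 8.45, 9.18 and 9.99 in pCD livers, and differed by -0.999 (-2.06 to 0.07). Egr1, an immediate early transcription factor, was 6.26, 7.37 and 8.38 in pLPD and 6.79, 8.39 and 9.69 in pCD livers, a difference of -0.86 (-1.64 to -0.09, unadjusted p = 0.0289). The probe set of Mir122, the gene of the abundant liver microRNA, differed by -0.76, Tff3 by -0.73 and the acute phase gene Saa2 by -0.65. All 7 means were lower in both array sets, by unequal amounts. Within array set A the difference was -1.71 for Lcn2, -1.24 for Mt1, -1.46 for Mt2, -1.40 for Mir122 and -0.93 for Saa2, larger in size than the -0.57, -0.63, -0.39, -0.38 and -0.48 found for the same genes within set B. For Egr1 and Tff3 it was -0.55 and -0.56 within set A, smaller in size than the -1.05 and -0.84 within set B. These differences between sets were not tested.

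**Figure D2:**
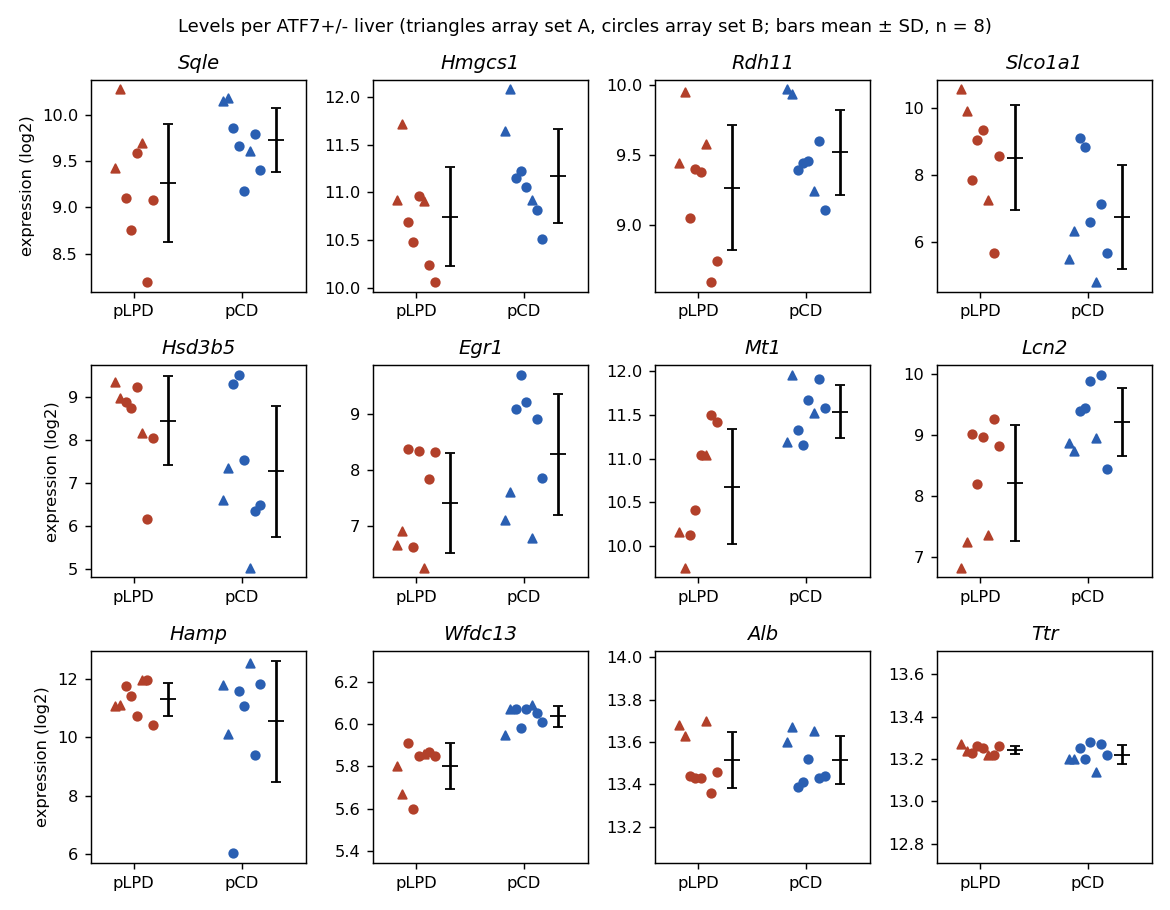
Expression (log2) of 12 genes in each pLPD (red, left) and pCD (blue, right) ATF7+/- liver; triangles are array set A and circles set B, and bars give the mean ± SD over 8 livers. Wfdc13 is the gene whose groups do not overlap, while Slco1a1, Hsd3b5, Egr1, Mt1 and Lcn2 are spread over 1 or more log2 units, and Alb and Ttr barely vary.

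Cholesterol synthesis genes were lower in the mean in pLPD livers, with no gene past the test. Of 24 genes listed 19 were measured, 0 passed, and all 19 had a mean below that of pCD livers, with a median of -0.26 (range -0.52 to -0.00) beside 0.00 over all genes. At an unadjusted p of 0.05, 4 differed, and 19 of 19 intervals lay within 2-fold and 6 of 19 within 1.5-fold. The genes varied together from liver to liver, with a median pairwise r of 0.66 within diet and array set over the 16 livers, so they do not count as separate observations. The median was -0.08 within array set A and -0.40 within set B.

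The first mevalonate steps were read by Hmgcs1, the cytosolic HMG-CoA synthase, which had 10.06, 10.80 and 11.72 in pLPD livers, against 10.51, 11.11 and 12.08 in pCD livers. The ranges overlapped, and the difference was -0.43 (-0.86 to 0.01). Its promoter is printed because it is the only one of this list that holds the SREBP recognition sequence searched for.

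Hmgcs1 promoter, GRCm38.p6 chr13:119690101-119690400, plus strand, motif in capitals: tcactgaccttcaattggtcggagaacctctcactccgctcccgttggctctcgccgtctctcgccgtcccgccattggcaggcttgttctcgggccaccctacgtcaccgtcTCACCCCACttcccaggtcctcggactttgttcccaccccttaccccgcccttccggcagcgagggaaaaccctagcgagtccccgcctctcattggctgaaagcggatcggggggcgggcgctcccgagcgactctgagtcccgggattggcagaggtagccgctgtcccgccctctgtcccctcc

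The promoter is RefSeq's, from 250 bases before to 50 after the gene's start, and the motif is the sterol regulatory element TCACNCCAC on either strand. Of 15 cholesterol genes with a promoter entry 1 held it, against 1.44% of 27025 genes with a promoter and 1.51% of the 10761 tested genes among them. The cAMP response element TGACGTCA, the site known for ATF2-family factors, was found in 0 of the 15. It was found in 2.03% of the 27025 and 3.27% of the 10761. At such shares, 15 genes are too few for these counts to set the list apart. A match is a description of the letters and not evidence of binding.

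Mevalonate kinase Mvk was 7.64, 7.82 and 8.35 in pLPD and 7.84, 8.21 and 8.76 in pCD livers, a difference of -0.34 (-0.63 to -0.04, unadjusted p = 0.0256). Mvd, the decarboxylase that makes isopentenyl diphosphate, differed by -0.52 (-0.98 to -0.05, unadjusted p = 0.0312), with 7.35, 8.18 and 9.31 in pLPD and 7.93, 8.88 and 9.10 in pCD livers. The squalene epoxidase gene Sqle, a rate-controlling step, was 8.19, 9.27 and 10.28 in pLPD and 9.18, 9.73 and 10.19 in pCD livers and differed by -0.47 (-0.98 to 0.04). Its highest single value was a pLPD liver, replicate 2. Lss, which closes squalene epoxide into lanosterol, differed by -0.49 (-0.96 to -0.02, unadjusted p = 0.0406), and Ebp, a late sterol isomerase, by -0.18 (-0.36 to -0.01, unadjusted p = 0.0404). Stard4, a sterol transfer protein, differed least, by -0.00.

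Fatty acid synthesis genes, driven by SREBP1c and ChREBP, were level in the mean: 20 of 20 were measured, 9 higher and 10 lower, with a median of -0.01. Fasn, the fatty acid synthase, differed by -0.07 (-0.68 to 0.54) and Scd1, the stearoyl-CoA desaturase, by -0.02 (-0.15 to 0.11). Scd2 had the smallest p and differed by -0.48 (-1.03 to 0.08), and Me1, the malic enzyme that supplies NADPH, by 0.37 (-0.15 to 0.88). In fatty acid oxidation and ketogenesis 22 of 25 means were higher, beside 7031 of all 13542 genes, with a median of 0.10 and 21 intervals within 1.5-fold. These genes had a median pairwise r of 0.48 within diet and array set. Hadhb, a subunit of the trifunctional protein, was 10.09, 10.31 and 10.40 in pLPD and 9.82, 10.10 and 10.47 in pCD livers, a difference of 0.16 (unadjusted p = 0.0487).

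Of the 26 pathway lists, 5 had a larger share of intervals within 1.5-fold than all genes tested (96%), and 21 had a smaller one. The lowest shares after cholesterol synthesis were those of the circadian clock list, with 7 of 16, and fatty acid synthesis, with 9 of 20. Of the ribosomal protein genes 22 of 22 had intervals within 1.5-fold, as did 28 of 28 oxidative phosphorylation subunits, 21 of 21 coagulation and complement genes, 13 of 13 apolipoprotein and lipoprotein assembly genes and 14 of 14 genes of the ATF2 family and H3K9 methylation list. In that last list Mapk14, the p38 kinase that acts on ATF7, had the smallest p and differed by 0.11 (-0.01 to 0.22). Urea cycle and amino acid breakdown genes had 15 of 16 within 1.5-fold, with Cps1, the first urea cycle enzyme, at -0.10 (-0.26 to 0.07). ATF4 target genes, which respond to amino acid shortage, had a median of -0.05, with Atf5 at -0.23 (-0.53 to 0.07). Gluconeogenesis and glycolysis genes had a median of 0.01, and G6pc, the last step of glucose release, was at 0.29 (-0.07 to 0.64).

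Other lists leaned one way in their means while 0 of their members passed. Over all genes tested, 7031 had higher and 6461 lower means. The median pairwise r within diet and array set ran from -0.00 for cytochrome P450 genes to 0.54 for cell cycle genes in the lists that follow. Members that vary together do not count as separate observations. All 11 heat shock chaperone genes measured had higher means, with a median of 0.12, which was 0.29 within array set A and 0.02 within set B. Dnaja1, an Hsp70 co-chaperone, differed by 0.23 (-0.03 to 0.48). The conjugation enzymes had 17 of 22 higher, led by Ugt2b38, a glucuronosyltransferase, at 8.77, 8.87 and 9.45 in pLPD and 8.14, 8.48 and 8.91 in pCD livers, a difference of 0.43 (0.13 to 0.73, unadjusted p = 0.00543). Ugt2b5 differed by 0.38; sequences within this gene family are similar. Of the cytochrome P450 genes 19 of 22 had higher means, with a median of 0.06.

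On the other side, 19 of 22 cell cycle genes had lower means, with a median of -0.10 that was 0.16 within array set A and -0.25 within set B. Mki67, the proliferation marker, differed by -0.34 (-0.96 to 0.28). All 12 imprinted growth and fetal liver genes tested had lower means (median -0.16), among them Igf2, the fetal growth factor, at -0.19 and Afp, the fetal albumin, at -0.19. Immediate early genes had 12 of 18 lower, with Fos, the AP-1 subunit, at -0.24 (-0.46 to -0.01, unadjusted p = 0.0385). Acute phase proteins had 12 of 18 lower; haptoglobin Hp differed by -0.15 (unadjusted p = 0.0315). Igfbp1, an insulin-repressed IGF binding protein, was the growth hormone axis gene with the smallest p, at -0.57 (-1.16 to 0.01). Clock genes had a median of 0.13, with Usp2, a deubiquitinase under clock control, at 0.53 (-0.33 to 1.38) and 7 of 16 intervals within 1.5-fold.

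**Figure D3:**
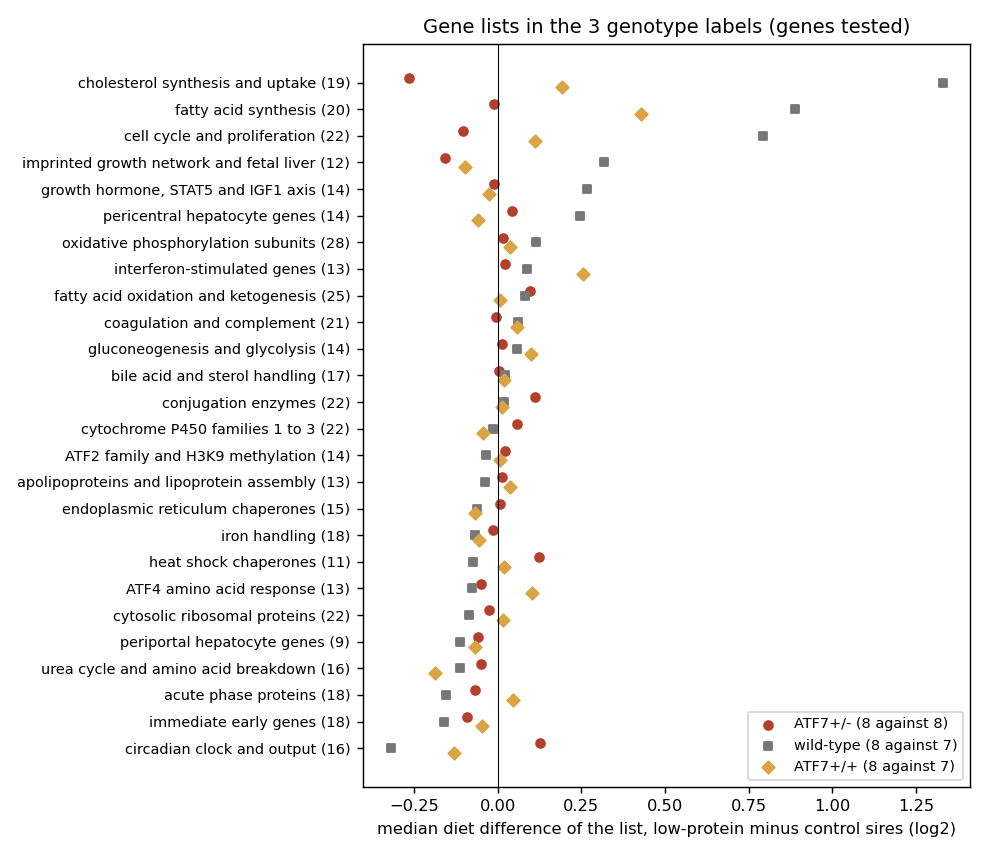
Median diet difference (log2, low-protein minus control sires) of 26 gene lists in ATF7+/- (red circles, 8 livers against 8), wild-type (grey squares, 8 against 7) and ATF7+/+ offspring (ochre diamonds, 8 against 7); numbers in brackets are genes tested. In ATF7+/- livers the medians lie between -0.26 for cholesterol synthesis and 0.13 for clock genes. The cholesterol median is 1.33 in wild-type and 0.19 in ATF7+/+ livers.

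Markers of other cell types were compared, because in whole liver fewer cells of a type and less RNA per cell cannot be told apart. No marker passed in any list. All 12 granulocyte markers were on the array, and 5 were above the level filter and tested. All 5 had lower means, with a median of -0.15. Their mean per liver was -0.43, -0.14 and 0.17 in pLPD and -0.29, 0.16 and 0.46 in pCD livers. Lcn2 and Prtn3 are on this list, and the part of granulocytes in their values was not tested. Kupffer cell, endothelial, stellate and lymphocyte markers were bounded within 1.5-fold for 12 of 12, 12 of 12, 12 of 12 and 5 of 5 genes tested, beside 96% of all genes. Kupffer cell markers had 10 higher and 2 lower means, with a median of 0.25 within array set A and -0.015 within set B. Endothelial markers had 1 higher and 11 lower means, stellate markers 3 and 9, and lymphocyte markers 3 and 2. Of 12 erythroid markers 7 were on the array and 4 were tested. Their mean per liver was spread from -0.44 to 0.62 in pLPD and from -0.24 to 0.80 in pCD livers. Exocrine pancreas and muscle markers stayed within 1.5-fold in 5 of 5 and 4 of 4 genes, with median levels of 6.41 and 6.22.

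The 10 highest mean levels were as follows. The probe set annotated to Baiap2l1 averaged 13.57, Alb 13.52, Apoe 13.50, Rn7sk 13.49, Apoa2 13.41, Apoa1 13.39, Trf, the transferrin gene, 13.37, Rpph1 13.36, Adh1 13.31 and Ahsg 13.28. Their diet differences lay between -0.02 and 0.03. Levels of different probe sets are not comparable as amounts of RNA.

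Spread between livers was modest for most genes. The residual SD, taken around the diet means, had a median of 0.18 (quartiles 0.14 and 0.24) and fell to 0.14 when array sets were also removed. Among genes with a level of at least 10 the most constant were Ttr, the thyroxine carrier, with an SD of 0.035, and Apoa2 with 0.037. Ttr had 13.22, 13.25 and 13.27 in pLPD and 13.14, 13.21 and 13.28 in pCD livers. Adh1, Rbp4, Rps6, Slc10a1, Lamp1 and Plg followed with SDs from 0.042 to 0.050.

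The most variable genes were of other kinds. An SD above 1 was found for 27 genes, or 14 within array sets. The 8 largest included those of Xist, Eif2s3y, Uty and Kdm5d, genes of the sex chromosomes, whose values fell into a high and a low class in both diets. Xist was 10.95 to 12.00 in replicates 6 to 8 of both diets and 4.23 to 5.14 in replicates 1 to 5. Eif2s3y, Uty and Kdm5d were low where Xist was high. Snord118, a small nucleolar RNA gene, had an SD of 1.996 that was 0.74 within array sets, and Osgin1, an oxidative stress response gene, one of 1.43 that was 0.61. Slco1a1 kept 1.43 of its 1.56 within sets. Hamp, the iron hormone hepcidin, had 10.41, 11.26 and 11.94 in pLPD and 6.03, 11.33 and 12.52 in pCD livers; the lowest value was pCD replicate 3 alone.

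Whether livers of one diet varied more than those of the other was tested by comparing absolute deviations from the group mean with limma. No gene of 13542 passed (percent called 0), 833 differed at an unadjusted p of 0.05, and the smallest adjusted p was 0.343. The median SD was 0.17 in pLPD and 0.18 in pCD livers, and the SD was larger in pLPD livers for 5645 genes and in pCD livers for 7897. These counts are over genes that are not independent. Of the 833 genes, 283 varied more in pLPD livers. That share moved with single livers, to 446 of 853 without pCD replicate 6 and 166 of 773 without pLPD replicate 6. Dhrs9, a retinol dehydrogenase, had the smallest p, with an SD of 0.70 in pLPD and 0.29 in pCD livers. Dnajb9, a chaperone of the endoplasmic reticulum, had 0.18 in pLPD and 0.54 in pCD livers, and Cyp4a12b 1.49 in pLPD and 0.34 in pCD livers. All pCD values of Cyp4a12b lay below 5.46, the lower limit for the mean of genes tested. The SDs of Ydjc were 0.11 in pLPD and 0.33 in pCD livers, and those of Taf11, a general transcription factor gene, 0.05 in pLPD and 0.23 in pCD livers. Over both diets, the SD of Dnajb9 was 0.40 and 0.18 within array sets, and that of Dhrs9 0.53 and 0.38 within sets. Those of Cyp4a12b (1.08 and 1.16 within sets), Ydjc (0.24 and 0.25) and Taf11 (0.16 and 0.17) were not smaller within sets.

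Over the 16 livers the sire's diet went with 3.97% of the total variance, array set with 48.5% and the Y-linked level with 9.52%. Any division of the 16 livers, also an arbitrary one, goes with some share of the variance. These shares were not tested. The first principal component held 49.6% and parted the array sets, with scores of 21.4 to 27.6 for pLPD and 21.6 to 30.1 for pCD livers in set A, against -17.3 to -8.22 for pLPD and -18.5 to -12.7 for pCD livers in set B. The diets overlapped on both leading components.

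**Figure D4:**
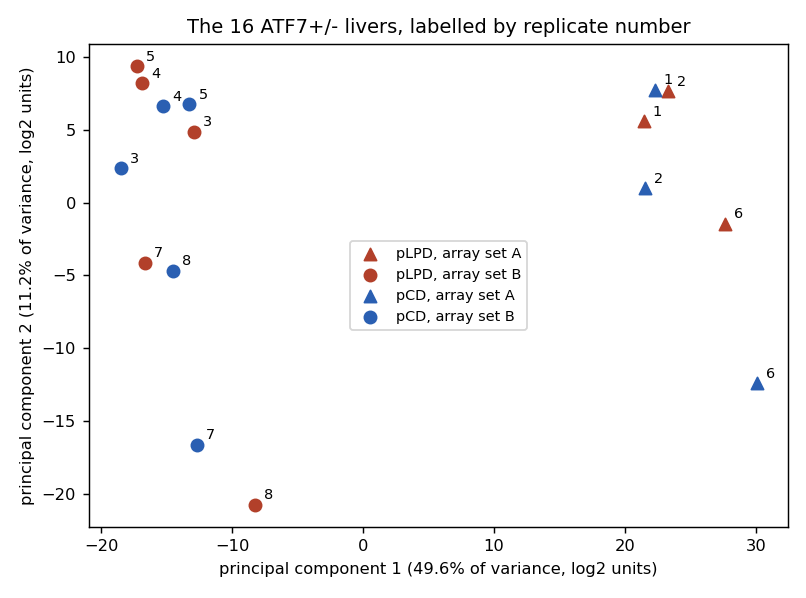
Scores of the 16 ATF7+/- livers on the first and second principal component of 13542 genes (log2 units, share of variance on each axis); colour gives the sire's diet (red pLPD, blue pCD), shape the array set and the number the replicate. Array set separates the livers along the horizontal axis and the diets lie among each other.

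The diet difference of ATF7+/- livers was set against that of wild-type livers by testing the difference between them, which share no samples. Of 13542 genes 86 (0.635%) passed, 77 (0.569%) with a lower and 9 with a higher difference in ATF7+/- livers. Of the 19 cholesterol genes 17 passed, all lower, and 5 of 20 fatty acid synthesis genes and 4 of 22 cell cycle genes did. The cholesterol count lay between 13 and 19 under every alternative run, whichever sample was left out. Since the list was chosen with earlier results known, that count is a description. The count over all genes was 49 without ATF7+/- pLPD replicate 8, 49 without wild-type pLPD replicate 8, 52 without wild-type pCD replicate 8, 167 without wild-type pCD replicate 2, and 299 with array set as a block.

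Sqle averaged 9.27 ± 0.64 in pLPD and 9.73 ± 0.34 in pCD ATF7+/- livers (n = 8 each), whereas wild-type livers averaged 9.75 ± 0.28 in pLPD and 7.54 ± 0.65 in pCD (n = 8 and 7). The lowest of these 4 means was that of the wild-type pCD livers. The difference between the diet differences was -2.68 (SE 0.36, adjusted p = 1.59e-05). Hmgcs1 followed the same order, with 10.75 in pLPD and 11.18 in pCD ATF7+/- livers, 11.31 in pLPD and 9.58 in pCD wild-type livers, and a difference of -2.16 (SE 0.31, adjusted p = 3.9e-05).

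The retrogene Rps23rg1 had the smallest p, with a difference of -1.65 (SE 0.19, adjusted p = 7.88e-07), and its own ATF7+/- diet difference was -0.31 (-0.58 to -0.04). Rdh11, a retinol dehydrogenase, differed by -2.11 and Fabp5, a fatty acid binding protein, by -2.97. Dhcr7, the last enzyme of cholesterol synthesis, Pmvk, phosphomevalonate kinase, and Msmo1, a sterol methyl oxidase, differed by -1.63, -1.50 and -2.05. Among the 12 genes with the smallest p in the ATF7+/- diet difference, Riok2 (0.57, adjusted p = 0.0257) and Tmco6 (-0.59, adjusted p = 0.00619) passed this test as well.

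Genes that passed the wild-type diet test gave a wider view. There were 487 (3.6%), 377 higher and 110 lower in wild-type pLPD livers, and 83 of the 86 genes above were among them. The 377 had a median of -0.03 in ATF7+/- livers, against 0.51 in wild-type livers, with 132 higher and 242 lower means, and 315 (83.5%) had ATF7+/- intervals within 1.5-fold, beside 96% of all genes. The 110 had a median of 0.02 in ATF7+/- livers, against -0.33 in wild-type livers, with 104 intervals (94.5%) within 1.5-fold. Since these genes were selected for their wild-type difference, only the ATF7+/- values are informative here, and 12 of the 487 (2.46%) had an unadjusted p below 0.05 in ATF7+/- livers, beside 178 of all 13542 (1.31%). Ces2g and Ces2e, carboxylesterases among the 8 with the smallest wild-type p, differed by -0.00 (-0.22 to 0.21) and -0.00 (-0.25 to 0.25) in ATF7+/- livers.

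The same test against ATF7+/+ livers found no gene. With limma 0 of 13542 passed (percent called 0), 380 differed at an unadjusted p of 0.05, and the smallest adjusted p was 0.958. That gene was Rb1cc1, an autophagy initiation factor, with a difference of 0.44 (SE 0.10) between the diet differences. Bcl6, a transcriptional repressor that is higher in male liver, had the widest difference of the 8 genes with the smallest p, at 1.601 (SE 0.47): its diet difference was 0.00 in ATF7+/- livers and -1.598 in ATF7+/+ livers. Sqle had diet differences of -0.47 in ATF7+/- and 0.46 in ATF7+/+ livers, which did not pass as a difference. Median diet differences in ATF7+/+ livers were 0.19 for cholesterol synthesis, 0.43 for fatty acid synthesis and 0.11 for cell cycle genes. In wild-type livers the same medians were 1.33, 0.89 and 0.79.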

How the data were processed

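Total RNA of mouse liver was labelled with biotin and hybridised to gene arrays. Each probe set has 1 deposited log2 value per array; the authors obtained these values by RMA, and the submitters' processing notes name Affymetrix Expression Console as the software. Versions, and whether all 48 arrays were normalised together, are not given in the sources used here. Arrays have no depth, so their number limits precision. Of 35556 probe sets, 21789 carried 1 gene symbol; those with a mean of at least the 40th percentile (5.46) were kept, 1 per gene (the brightest), which left 13542 genes. Near-identical array pairs in 2 other groups were averaged, leaving 46 samples. Group means of all 6 groups were fitted with limma 3.58.1 in R 4.3.3 (files were read with the data.table package, version 1.17.8), two-sided, with Benjamini-Hochberg adjustment over all genes at 0.05 and 40 residual degrees of freedom before moderation. Figures used Python 3.11.15 and matplotlib 3.10.9. The steps were tried on simulated data with independent normal noise for each gene and no array sets. That check therefore does not cover the array sets or the correlation between genes found here.

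Array sets were read from 5591 probe sets that the annotation pairs with no gene: their leading principal component has 1 widest gap, and the arrays on its 2 sides are sets A and B. Same-numbered samples of the 2 diets correlated in their deviations from group means with r from 0.18 to 0.74, positive in all 8 pairs. Samples of the same number also shared an array set. The main fits held no replicate term, and a fit with replicate number as a block was run as an alternative. Of the 8 pLPD samples, 2 (replicates 1 and 6) had their own number as the best-correlated pCD sample. Within array sets r was -0.04 to 0.38. The labels state no pairing of the samples.

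The samples, gene lists, named genes and tests were chosen with earlier results of these data known. The genes named are the 12 with the smallest p in the diet difference, up to 4 per list, 8 per interaction, 5 for spread, the 10 highest, the 8 most constant and 8 most variable, the 8 with the smallest wild-type p, a few fixed genes (Atf7, Sqle, Fasn, Scd1, Alb, Hamp and Y-linked genes), and, chosen after their values were seen, all beyond 1.5-fold, Cyp3a44, Cyp2b13, Stard4 and Nmrk1. Of the 12, 1 is not reported here. List counts are descriptions without a test. Alternatives changed the filter, normalisation, probe-set choice, variance prior, array weights, groups, blocks, covariates and samples.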

Additional observations from a re-analysis of the deposited data

Results flagged for a closer look

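In groups of 8 livers, a sample was picked out where its gap to the next value exceeded Dixon's 95% limit, which chance does in about 1 in 20 groups. Many named genes and list means were examined in this way, so a number of picks is expected by chance. The number examined is not given here, so the picks are descriptions and not results about single livers. Several picks fell on pLPD replicate 8: the mean of the erythroid markers (0.62, centred), the mean of the Kupffer cell markers (0.28), Cry1 at 7.82, Usp2 at 9.61, Fos at 5.98, Ifih1 at 8.19, Ermap at 6.52 and Cd79b at 7.89. Other pLPD livers stood apart in Ier2 (replicate 2, 5.21), Nr1h4 (replicate 4, 9.62), Prtn3, Apoa5 and Ighm (replicate 5, 5.99, 10.87 and 5.67), Wdr25, Cyp2c38 and the growth hormone axis mean (replicate 6, 6.35, 6.41 and -0.21), and 9330175E14Rik and Hsd3b5 (replicate 7, 5.11 and 6.15). Among pCD livers, replicate 1 stood apart in Asic5 (6.65), replicate 2 in Dnaja1 (9.60), F5 (10.66) and Ndufs3 (10.36), and replicate 3 in Nr1d2 (8.38). Replicate 5 did so in Mvd (7.93), Mapk14 (8.70) and the fatty acid oxidation mean (0.28), and replicate 6 in Gpt (9.79), Socs2 (8.02), Ugt2b1 (9.95) and Plin4 (8.0). Replicate 7 was apart in G6pc (10.70), Rpsa (10.28), Alas2 (9.05) and Cd79b (8.08), and replicate 8 in F9 (10.02).

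The diet difference of ATF7+/- livers differed from that of wild-type livers, by limma's interaction test over all genes, in these named genes. Among lipid genes the difference was -2.68 for Sqle, -2.16 for Hmgcs1, -2.05 for Msmo1, -2.02 for Lss, -1.84 for Mvd, -1.63 for Dhcr7, -1.50 for Pmvk, -1.25 for Mvk, -0.56 for Ebp, -2.17 for Acss2, -2.97 for Fabp5, -2.11 for Rdh11 and -0.39 for Scd1. It was -1.94 for Ccna2 and -1.89 for Mki67, both of the cell cycle, -0.93 for Acta2, -1.65 for Rps23rg1, -0.89 for Ces2g, -1.03 for Ces2e, -0.78 for Mr1, -0.57 for Zfp618, -0.59 for Tmco6 and 0.57 for Riok2.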

How the results depend on the processing

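The diet difference gave 0 genes under each alternative run except array set A alone, which gave 1 (Nmrk1, 1.003 higher in pLPD livers, adjusted p = 0.0372, limma; 0.08 within set B). With the replicate block the count was 0 for the diet difference, 119 for ATF7+/- minus wild-type and 0 for ATF7+/- minus ATF7+/+; it changed no other call. The wild-type interaction count of 86 was 178 with array weights, 299 with the array-set block, 280 in array set A alone, 181 in set B alone, and 417 when the Y-linked level was added as a covariate to the block on array sets, a fit chosen after seeing the data. Leaving out 1 sample gave 49 to 167: 49 without ATF7+/- pLPD replicate 8, 49 without wild-type pLPD replicate 8, 52 without wild-type pCD replicate 8 and 167 without wild-type pCD replicate 2 (wild-type samples were left out after seeing the data). The ATF7+/+ interaction stayed at 0 throughout. Leaving out 1 liver gave 0 to 2 genes in the spread test: 2 without pCD replicate 5 or 6, and 1 without pLPD replicate 2 or 8. Genes bounded within 1.5-fold numbered at least 12440 of 13542 in every setting with that filter. The cause of these shifts was not tested. Of 1176 list medians recomputed, 92 changed sign, and of 6529 values of named genes, 253 did; 5 and 34 moved by more than the spread between livers, most of them in array set A alone, with 3 livers per diet.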
